A study of Sus scrofa with 4 samples.

Results

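The C/EBP family was followed through 4 stages of the differentiation of porcine subcutaneous preadipocytes, the fibroblast-like precursors of fat cells. Its members were taken by gene symbol from the protein-coding rows of the deposited expression values, and the 6 genes CEBPA, CEBPB, CEBPD, CEBPG, CEBPZ and DDIT3 were found among 16192 protein-coding genes. All 6 were reliably expressed mRNAs, that is, their FPKM reached 1 in 3 or more libraries, as it did for 9191 mRNAs. FPKM counts the fragments of a gene per kilobase of transcript and per library size. Comparisons between genes therefore rest on the gene lengths used, and those between stages on the library scaling.

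The cells came from the subcutaneous fat of male Chinese Erhualian piglets aged 5 days and were grown to confluence, the stage named D0. The cocktail DMI, which holds dexamethasone (a glucocorticoid), 3-isobutyl-1-methylxanthine (a phosphodiesterase inhibitor that raises cAMP) and insulin, was then present until D2. From D2 to D4 the medium held insulin as the sole added hormone, and from D4 to D8 the cells were kept in growth medium with serum, the medium they all shared. Equal amounts of RNA from 3 piglets were mixed at each stage and made into 1 library, so no stage has a replicate library. The spread between piglets was not measured in these libraries, and stage, medium and library cannot be told apart. The paper also ran quantitative PCR on 3 RNA samples per stage for CEBPA and other genes, and reported trends similar to the sequencing. Those PCR values are not part of the data used here. Differences are therefore given as ratios between 2 libraries with 95% intervals from the number of reads, which cover counting error only, and no p-value compares stages.

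C/EBP proteins bind DNA as dimers through a basic leucine zipper (bZIP). In the classical scheme of fat cell formation, hormones first raise CEBPB and CEBPD, which then activate CEBPA and the nuclear receptor gene PPARG, and the latter pair keep each other and the genes of the mature fat cell active. CEBPG is a widely expressed partner without a strong activation domain of its own, and DDIT3 (also called CHOP) is a stress-induced partner that keeps other members off their usual sites. CEBPZ shares the name but not the zipper, being a nucleolar protein of large ribosomal subunit assembly.

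The total number of reads behind the FPKM values, as recovered from those values, was 75387428, 54987801, 74358922 and 54128151 from D0 to D8. The paper reports more mapped reads at each stage, and whether the recovered totals count reads or read pairs is not given. In a library, 14467 to 14868 mRNAs were above 0. Values in a series of 4 run from D0 to D8 throughout. All 6 adipocyte markers were in the data, with a summed FPKM of 104 at D0 and then 369, 1533 and 2013. FABP4 made up most of that sum, and FABP4 and CIDEC alone were higher at D8 than at D4, while PLIN1, LPL, ADIPOQ and LIPE were lower. The 7 measured fibroblast and preadipocyte markers summed to 1130, 2272, 3034 and 2296, with COL3A1 the highest of them at every stage (491, 1286, 2058 and 1624), whereas THY1 was lower at each later stage (105, 101, 88.0 and 78.8). The 5 endothelial markers summed to 1.16 to 2.65, with CDH5 at 0 at D0, D2 and D8 and VWF at 0 at D2, D4 and D8. Those of leukocytes and macrophages (7 measured) summed to 1.95 to 4.39, and those of skeletal muscle (3 measured) to 0.0210 to 0.0858. The 4 epithelial markers summed to 5.19, 9.92, 17.6 and 26.3, most of it KRT8 (4.46, 8.25, 15.8 and 25.1). KRT18, CDH1 and EPCAM were under FPKM 1 at every stage. The 5 smooth muscle and pericyte markers summed to 3006 at D0, then 329 (D2), 229 (D4) and 2790 (D8), nearly all of it ACTA2 (alpha smooth muscle actin), while MYH11, which defines mature smooth muscle, stayed between 0.289 and 0.633. In bulk RNA, fewer cells of a type and less RNA per cell cannot be told apart.

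CEBPA, the factor that drives terminal differentiation, had the widest range of the 6 members over these 4 libraries. It lies on chromosome 6 of the Sscrofa11.1 assembly, from 43083200 to 43085884 on the minus strand, as a single span of 2685 bases. Its FPKM was 15.4, 95.3, 162 and 37.1 from D0 to D8, on 3109, 14076, 32355 and 5394 reads. The level was thus lowest at confluence and highest at the end of the insulin period, and it stood at D8 above D0 but below D2. CEBPA rose 6.20-fold in D2 vs D0, a log2 ratio of 2.63 (95% counting interval 2.58 to 2.69), and 91 of the 9191 mRNAs had a higher ratio. By D4 it had risen 10.5-fold over D0 (log2 ratio 3.40, interval 3.35 to 3.45). It then fell by 2.13 on the log2 scale from D4 to D8 (interval -2.17 to -2.08), a level 4.37-fold lower, and 63 mRNAs had a lower ratio. At D8 CEBPA was 2.42-fold above D0 (log2 ratio 1.27, interval 1.21 to 1.34). ACTA2 had FPKM of 2907, 324, 225 and 2762, low in the libraries where CEBPA was highest, and its part in the values of CEBPA was not tested.

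**Figure D1:**
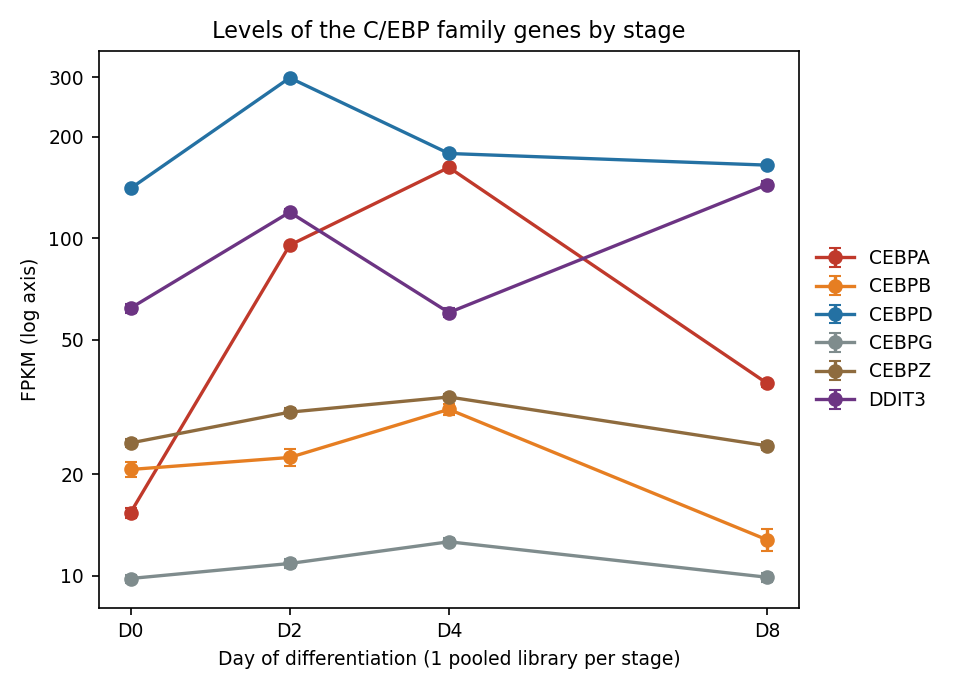
FPKM (log axis) of the 6 C/EBP family genes against the day of differentiation, with 1 pooled library per stage and bars for the exact Poisson 95% interval of the read number, which cover counting error only and are mostly smaller than the points. CEBPA goes from 15.4 at D0 to 162 at D4 and back to 37.1 at D8, while CEBPG stays between 9.80 and 12.6.

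A long non-coding RNA starts next to CEBPA. LOC102160718 lies on the plus strand from 43086118 to 43089178, so that the starts of both genes face away from each other with 233 bases between them. Its FPKM was 0.123 at D0 and then 0.604, 1.17 and 0.685, from 24, 86, 225 and 96 reads. Like CEBPA it was lowest at D0 and highest at D4. The log2 ratio of its scaled reads was 3.25 (interval 2.64 to 3.92) in D4 vs D0, an interval that holds the 3.40 of CEBPA. In D8 vs D4 the log2 ratio was -0.77 (interval -1.13 to -0.42), which does not reach the -2.13 of CEBPA. The library kit keeps the strand of the RNA, but whether the counting used it is not given in the sources used here.

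CEBPB and CEBPD, the early pair of the cascade, had unlike patterns. CEBPB lies on chromosome 17 from 51722633 to 51723673 on the plus strand, a single span of 1041 bases. Its FPKM was 20.6 at D0, then 22.4 (D2), 31.1 (D4) and 12.8 (D8), from 1619, 1282, 2407 and 719 reads. CEBPB was not higher by 2-fold at any stage after the cocktail: the counting intervals of its levels at D0 (19.6 to 21.7) and D2 (21.2 to 23.7) overlapped, the log2 ratio of D2 vs D0 was 0.12 (interval 0.01 to 0.23, just above 0), and that of D4 vs D0 was 0.59 (interval 0.50 to 0.68). Its call was a fall of 2.44-fold from D4 to D8 (log2 ratio -1.28, interval -1.41 to -1.16), which left it at its lowest level, with a log2 ratio of -0.69 to D0 (interval -0.82 to -0.57). The data hold no stage between D0 and D2, so the first hours were not measured here.

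CEBPD lies on chromosome 4 from 79872863 to 79874481 on the plus strand, a single span of 1619 bases. Its FPKM was 140, 299, 178 and 165 from D0 to D8, on 17134, 26587, 21456 and 14425 reads. It was the most abundant member per length in every library, and its highest level was at the end of the hormone cocktail. CEBPD rose 2.13-fold in D2 vs D0 (log2 ratio 1.09, interval 1.06 to 1.12). The log2 ratio of D4 vs D2 was -0.74 (interval -0.77 to -0.72), short of 2-fold, although 155 of 9191 mRNAs had a lower ratio. At D8 the level was within 1.17-fold of D0. The log2 ratio of -0.11 in D8 vs D4 became 0.10 when libraries were scaled by the median of gene ratios, so its direction depended on the scaling. SPIDR, a gene of DNA repair whose 3' end lies 455 bases from that of CEBPD on the opposite strand, had its highest FPKM at D4 (3.04, 8.72, 14.5 and 5.22 from D0 to D8), when CEBPD was already below its D2 level.

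CEBPG lies on chromosome 6, from 43164902 to 43175002 on the plus strand, with 79017 bases between its start and that of CEBPA. Its FPKM was 9.80 at D0 and then 10.9, 12.6 and 9.89, from 5200, 4202, 6590 and 3765 reads. This spans 1.28-fold, and 7706 of the 9191 mRNAs had a wider range over the stages, whose median range was 1.64-fold. The levels at D0 and D8 overlapped in their counting intervals (9.54 to 10.1 and 9.57 to 10.2). On the same chromosome, CEBPA had a range of 10.5-fold.

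DDIT3 lies on chromosome 5 from 22785441 to 22789867 on the minus strand. Its FPKM was 62.0 at D0, then 119 (D2), 60.2 (D4) and 144 (D8), from 4344, 6099, 4158 and 7251 reads. It had 2 high stages, D2 and D8, with a return at D4 to within 1.03-fold of D0, and the counting intervals at D0 (60.2 to 63.9) and D4 (58.4 to 62.0) overlapped. DDIT3 rose 2.40-fold from D4 to D8 (log2 ratio 1.26, interval 1.21 to 1.32), and 249 mRNAs had a higher ratio. At D8 it was 2.32-fold above D0 (log2 ratio 1.22, interval 1.16 to 1.27). The swing around D2 was just short of 2-fold, although the counting intervals of both steps hold 2-fold. The log2 ratios were 0.94 in D2 vs D0 (interval 0.89 to 1.001) and -0.99 in D4 vs D2 (interval -1.05 to -0.93). The second of these passed 2-fold with libraries scaled by the median of gene ratios (-1.08), by the protein-coding sum (-1.06) or by 3 reference genes (-1.26). The first passed it with the protein-coding sum (1.05) and the reference genes (1.04). DDIT3 overlaps the methionyl-tRNA synthetase gene MARS on the opposite strand by 69 bases, and MARS had its lowest FPKM at D4 (67.2, 46.1, 37.0 and 49.9).

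CEBPZ lies on chromosome 3 from 102964213 to 102988664 on the plus strand. Its FPKM was 24.7, 30.5, 33.8 and 24.2 from D0 to D8, on 6324, 5692, 8537 and 4453 reads. Like CEBPG it had its highest level at D4 within a narrow range, here of 1.40-fold, and its levels at D0 (24.1 to 25.3) and D8 (23.5 to 24.97) overlapped in their counting intervals. CEBPZOS, the one further row whose symbol starts with CEBP, runs on the opposite strand and overlaps CEBPZ by 7026 bases. Its FPKM was 11.2, 10.9, 10.2 and 10.3, a flat series beside that of CEBPZ. CEBPE was not analysed here. No circRNA in the data overlapped a member.

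The members were then set beside all reliably expressed mRNAs. In D2 vs D0, 2 of the 6 members were upregulated at least 2-fold (CEBPA and CEBPD) and none downregulated, against 6.67% of mRNAs up and 10.1% down. In D4 vs D2 no member passed 2-fold, against 4.24% up and 0.838% down. The log2 ratio there was 0.77 for CEBPA and 0.47 for CEBPB, and -0.99 for DDIT3 and -0.74 for CEBPD. In D8 vs D4, 1 member was upregulated (DDIT3) and 2 were downregulated (CEBPA and CEBPB), against 4.43% up and 10.1% down. CEBPA alone was called in D4 vs D0, upregulated, against 10.4% up and 8.81% down. CEBPA and DDIT3 were upregulated in D8 vs D0, against 3.60% up and 3.68% down. These comparisons share libraries, so they are not separate observations. With so few members, the counts are given as a description.

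The median log2 ratio of all mRNAs was -0.03 in D2 vs D0, 0.09 in D4 vs D2 and -0.21 in D8 vs D4, and against D0 it was 0.06 for D4 and -0.18 for D8. Taken from that median, the fall of CEBPA in D8 vs D4 was -1.91 and that of CEBPB -1.07, and the rise of DDIT3 was 1.47. The split of the called mRNAs into up and down moved with scaling. Of the mRNAs called in D8 vs D4, 30.5% were upregulated, and 52.0% with libraries scaled by the median of gene ratios, which also moved D8 vs D0 from 49.5% to 66.1%. With scaling to 3 reference genes, D4 vs D2 went from 83.5% to 62.4% and D4 vs D0 from 54.2% to 40.8%.

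**Figure D2:**
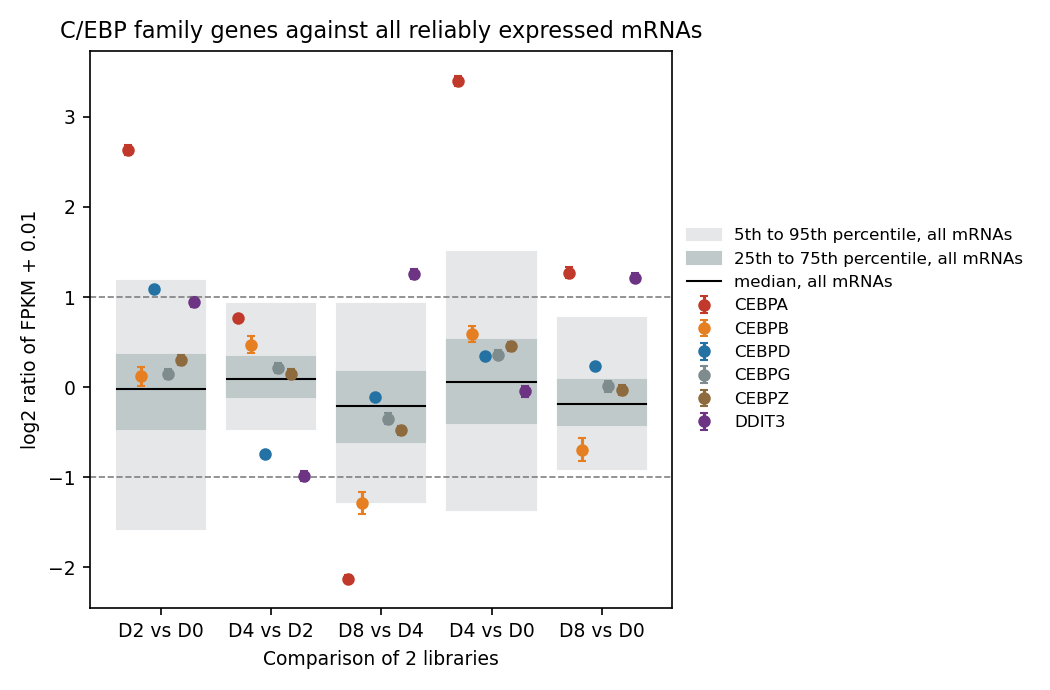
Log2 ratio of FPKM + 0.01 for each member in the 5 comparisons of 2 libraries, with bars for the 95% counting interval; grey boxes give the 5th to 95th and 25th to 75th percentiles and the line the median of 9191 mRNAs, and dashed lines mark 2-fold. CEBPA lies above the 95th percentile in D2 vs D0, D4 vs D0 and D8 vs D0 and below the 5th in D8 vs D4, and DDIT3 lies above the 95th in D8 vs D4 and D8 vs D0. DDIT3 and CEBPD lie below the 5th in D4 vs D2, and CEBPB just below it in D8 vs D4.

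The order of the members changed with the stage. At D0 it was CEBPD, DDIT3, CEBPZ, CEBPB, CEBPA and CEBPG from highest to lowest FPKM. CEBPA moved from the fifth place to the third at D2 and the second at D4, next to CEBPD, and was in the third again at D8. No neighbours in the order of a library overlapped in their counting intervals. Among the 9191 reliably expressed mRNAs, CEBPA ranked 3031 at D0 and then 540, 347 and 1367, whereas CEBPD ranked between 183 and 430. Levels of different genes depend on the annotated lengths, and that of CEBPB, at 1041 bases, was the shortest of the single-span members.

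The make-up of the bZIP members, which can pair with each other, shifted accordingly. The summed FPKM of CEBPA, CEBPB, CEBPD, CEBPG and DDIT3 was 248 at D0, then 547 (D2), 444 (D4) and 369 (D8). CEBPA made up 6.19% of it at D0 and 17.4% at D2, and then 36.5% and 10.1% at D4 and D8. The share of DDIT3 went from 24.99% and 21.8% at D0 and D2 to 13.6% at D4 and 39.1% at D8, the reverse of CEBPA after D2. Shares of the same sum are tied together, so a higher share of CEBPA in itself lowers the rest. CEBPD held 56.6%, 54.6%, 40.1% and 44.7%, and CEBPB at most 8.31%. Of CEBPA, CEBPB and CEBPD alone, CEBPA made up 8.71%, 22.9%, 43.6% and 17.3%, again with its highest share at D4, and CEBPB 5.95% at D8 instead of 3.46%.

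Ratios between members within a library, which do not depend on library scaling, show the same turn. The FPKM ratio of CEBPA to CEBPB was 0.745 at D0 (interval 0.701 to 0.791) and 5.21 at D4, with 4.26 at D2 and 2.91 at D8. The ratio of CEBPA to DDIT3 was 0.248 at D0, 0.799 at D2 and 2.69 at D4, and it was 0.257 at D8, where its interval of 0.248 to 0.267 overlapped that of D0 (0.236 to 0.259). CEBPA thus exceeded DDIT3 at D4 and at no other stage. The ratio of DDIT3 to CEBPG, a partner it can bind, was 6.33, 11.0, 4.78 and 14.6. CEBPB relative to CEBPD was 0.147, 0.0750, 0.174 and 0.0775 from D0 to D8, with D2 and D8 overlapping in their intervals.

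**Figure D3:**
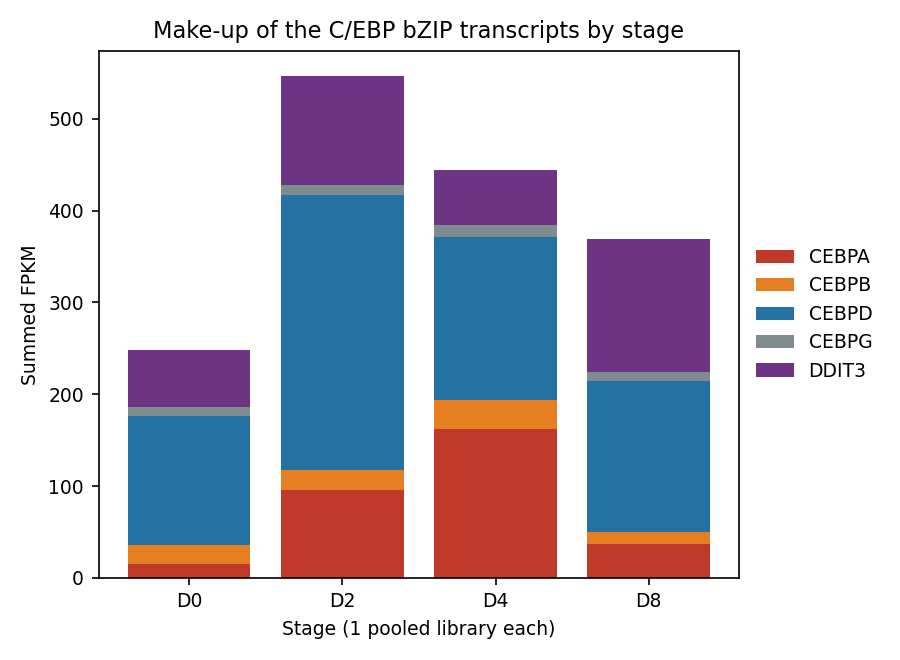
Stacked FPKM of the 5 bZIP members in each pooled library, with 1 library per stage and no error shown; the CEBPZ protein has no zipper and is left out. The CEBPA block is tallest at D4, at 36.5% of the sum, and the DDIT3 block at D8, at 39.1%.

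Genes of the adipogenic programme were then counted over gene lists from general knowledge. For these lists and those below, the background is the share of all mRNAs past 2-fold and their median ratio, given above for each comparison. Of 16 adipogenic transcription factors, 9 were reliably expressed. In D2 vs D0, 4 of the 9 were upregulated (EBF1, KLF15, KLF9, PPARG) and 1 downregulated (KLF4), with a median log2 ratio of 0.81. None of the 9 passed 2-fold in D4 vs D2. Among the factors outside the 9, SREBF1 and ZNF423 rose past 2-fold in this step to an FPKM above 1. SREBF1 had 0.970 at D2 and 3.34 at D4, and ZNF423 had 0.623 and 1.71. PPARG, the nuclear receptor that acts with CEBPA, had FPKM of 2.95, 26.4, 51.9 and 25.8, highest at D4 as CEBPA was. KLF15, an activator of PPARG and of glucose transport, had 0.657, 5.20, 5.39 and 1.204. From D4 to D8, 5 of the 9 fell 2-fold or more (EBF1, KLF15, KLF9, PPARG, RXRA) and 1 rose (KLF4), with a median of -1.01. Over this step PPARG had a log2 ratio of -1.01 and CEBPA of -2.13, and in D8 vs D0 PPARG had 3.12 and CEBPA 1.27. KLF5, which lies between CEBPB and PPARG in the known cascade, was under FPKM 1 in all 4 libraries. Of 12 inhibitors of adipogenesis, 11 were in the data and 5 were reliably expressed. TCF7L2 and TRIB2 were upregulated and KLF7 downregulated in D2 vs D0, none passed 2-fold in D4 vs D2, and TCF7L2 was downregulated in D8 vs D4. KLF2 and NR2F2 were under FPKM 1 in all 4 libraries, and DLK1 was not analysed here.

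The genes that CEBPA and PPARG are known to activate were mostly above their D0 level at D8, whether or not they had fallen after D4. Of 14 reliably expressed genes of 18 listed, 13 were upregulated in D2 vs D0 (median 2.34) and 11 in D4 vs D2 (median 2.06), with none downregulated. In D8 vs D4, when CEBPA fell 4.37-fold, none of the 14 was upregulated and 5 were downregulated (INSR, LIPE, PCK1, PLIN1, PNPLA2). Their median was -0.37 against -0.21 over all mRNAs. Among listed genes outside the 14, CIDEC rose in this step from FPKM 5.01 to 54.6 (log2 ratio 3.44). LEP also rose, but stayed under FPKM 1, and LPIN1 fell from 4.03 to 1.57 (log2 ratio -1.35). FABP4, the fatty acid carrier of fat cells, had FPKM of 77.5, 201, 853 and 1557, its highest level in the library after the fall of CEBPA. ADIPOQ, the hormone adiponectin, had 3.80, 29.6, 179 and 158, and SLC2A4, the insulin-dependent glucose transporter, 0.0924, 1.53, 8.80 and 7.58. PLIN1, which coats lipid droplets, had 2.28, 36.1, 215 and 90.3. In D8 vs D0, 11 of the 14 were upregulated and the median was 4.05. The 6 adipocyte markers summed above are all in this list, and all but CIDEC are among the 14, so the marker sum and these counts rest on shared genes.

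**Figure D4:**
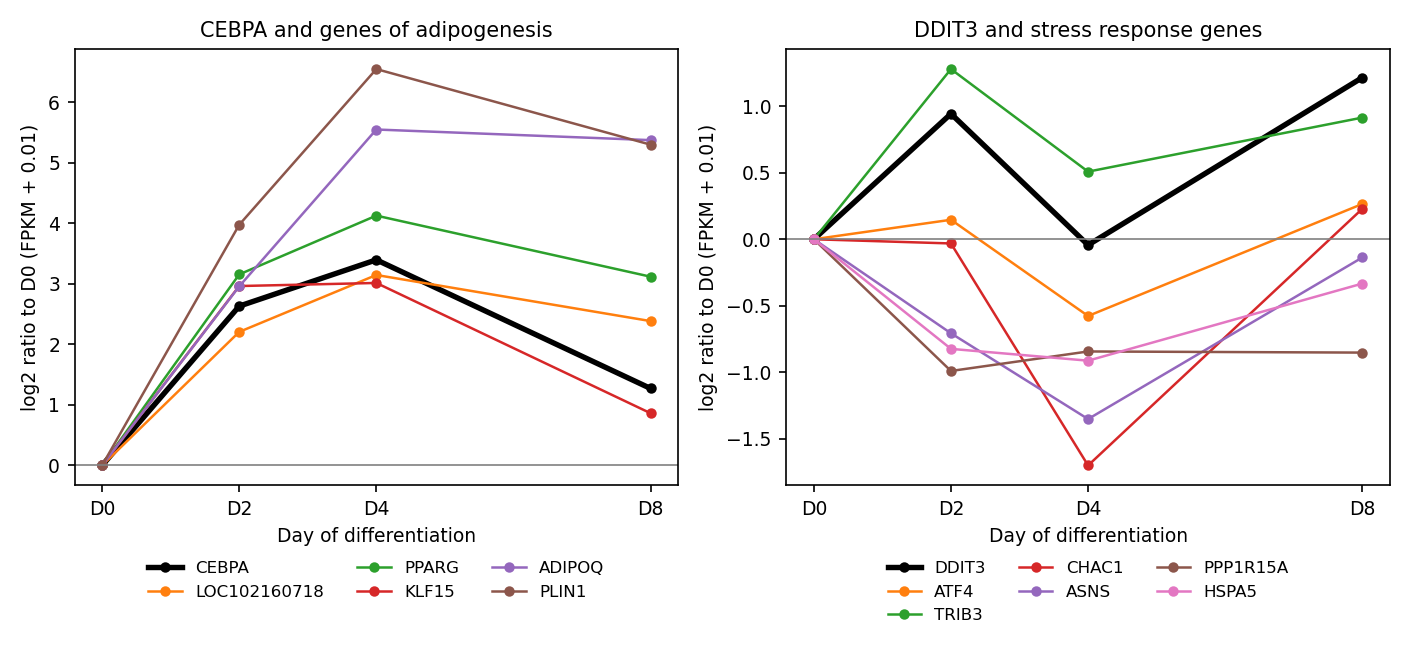
Log2 ratio of FPKM + 0.01 to D0 by day of differentiation, 1 pooled library per stage, for CEBPA with its neighbour LOC102160718 and genes of adipogenesis (left) and for DDIT3 with stress response genes (right). All 6 lines on the left rise from D0 to D4 and CEBPA and KLF15 end lowest at D8, while DDIT3 and TRIB3 on the right have a first high at D2 that ASNS, HSPA5 and PPP1R15A lack.

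The hormones of the cocktail were traced by genes known to answer to them. Of 14 glucocorticoid response genes, 12 were reliably expressed. In D2 vs D0, when CEBPD rose, 9 were upregulated and 1 (ERRFI1) downregulated, against 6.67% of all mRNAs up and 10.1% down. Their median log2 ratio was 2.62, against -0.03 over all mRNAs. FKBP5, a chaperone of the glucocorticoid receptor, had FPKM of 4.88, 61.2, 77.4 and 38.6, and TSC22D3, a mediator of glucocorticoid action, 3.26, 33.5, 23.6 and 31.7. None passed 2-fold in D4 vs D2, after dexamethasone had been withdrawn, and 8 of the 12 were still upregulated and 2 downregulated in D8 vs D0. Between D4 and D8, 5 were downregulated (ANGPTL4, FKBP5, GLUL, KLF9, ZBTB16). The receptor gene NR3C1 had 6.21, 8.42, 9.75 and 6.32, and PER1 was under FPKM 1 at D0 and D8. KLF9 is counted here and among the adipogenic factors. Of 11 cAMP response genes, 10 were in the data and 5 were reliably expressed. Of these, 2 were upregulated in D2 vs D0 (PDE4B, SIK1), 3 were downregulated in D8 vs D4 (NR4A3, PDE4B, SIK1), and none passed 2-fold in D4 vs D2. PDE4D had 0.993, 1.82, 0.853 and 0.243, and NR4A1 was not analysed here. CREM, a cAMP-inducible bZIP factor, had FPKM of 5.20, 3.18, 3.55 and 3.94, highest at D0. PER1 and DUSP1 stand in both hormone lists.

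Acute phase and cytokine genes known to answer to CEBPB and CEBPD were mostly not reliably expressed. Of 14 listed, 12 were in the data and 5 were reliably expressed. CXCL8, LIF and PTGS2 were left out by this rule because they were above FPKM 1 at D0 alone (5.41, 1.87 and 3.79). All of these were lower at D2 (0.440, 0.249 and 0.896). LCN2, SAA3 and SOD2 were upregulated and CCL2 was downregulated in D2 vs D0, IL6 was downregulated in D4 vs D2, and in D8 vs D4 CCL2 was upregulated and LCN2 downregulated. IL6 had FPKM of 5.97, 8.71, 2.35 and 2.35, and CCL2, a chemokine, 54.7, 6.50, 6.65 and 21.4. IL6 was thus highest at D2, as CEBPD was, and CCL2 was highest at D0. HP and C3 were under FPKM 1 in all 4 libraries.

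DDIT3 was set beside 21 stress response genes, of which 20 were in the data and 18 were reliably expressed. In D2 vs D0, when DDIT3 had a log2 ratio of 0.94, the median of the list was -0.12. Of its genes, 2 were upregulated (DDIT4, TRIB3), 3 were downregulated (CTH, SLC7A11, VLDLR), and 12 of 18 had a ratio below 1, against 52.0% of all mRNAs. In D4 vs D2, 17 of 18 had a ratio below 1, against 37.5% of all mRNAs, with a median of -0.52 and 2 genes past 2-fold (CHAC1, DNAJB9). In D8 vs D4, when DDIT3 rose, 16 of 18 had a ratio above 1 against 35.1% of all mRNAs, the median was 0.68, and 5 were upregulated (ASNS, CHAC1, CTH, SLC7A11, VLDLR) with none downregulated.

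Single genes of the stress list differed. ATF4, the bZIP factor that activates DDIT3 when translation is inhibited, had FPKM of 211, 233, 141 and 253, with its low at D4 as in DDIT3. TRIB3, a target of ATF4 and DDIT3, had 6.95, 16.9, 9.90 and 13.1, and CHAC1, which degrades glutathione, 12.1, 11.8, 3.70 and 14.2. Asparagine synthetase ASNS had 152, 93.2, 59.6 and 138. HSPA5, the main chaperone of the endoplasmic reticulum, had 349, 197, 185 and 277, and PPP1R15A, which is known to be activated by DDIT3, 15.3, 7.70, 8.53 and 8.48. DDIT3 at D8 was thus 1.22 above D0 on the log2 scale, whereas the median of the 18 genes was -0.05 and the one gene called in D8 vs D0 (CTH) was downregulated.

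Other bZIP factors moved in both directions. Of 24 listed, 20 were reliably expressed, with ATF5 and FOS among those upregulated in D2 vs D0 and 4 downregulated (ATF3, BATF3, JUN, JUND). ATF5, which like DDIT3 is induced through ATF4, had FPKM of 6.29, 17.9, 8.74 and 4.41, with the high at D2 but not the one at D8. It was the one gene of the list past 2-fold in D4 vs D2, downregulated. ATF3 had 9.58, 3.01, 1.87 and 4.33, JUN 9.42, 2.06, 2.83 and 7.92, and FOS 1.49, 9.83, 9.66 and 4.46. ATF3 and JUN were upregulated in D8 vs D4, and FOS was among those downregulated. ATF4 and XBP1 are counted in the stress list as well.

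CEBPZ was set beside 22 ribosome assembly genes, all reliably expressed. None passed 2-fold in D2 vs D0 or D4 vs D2, the same as CEBPZ, and 20 of 22 had a ratio above 1 in D4 vs D2, as did 62.5% of all mRNAs. From D4 to D8, 19 of 22 had a ratio below 1, as did 64.9% of all mRNAs, with a median of -0.53 next to -0.48 for CEBPZ, and 5 were downregulated (BYSL, FBL, NCL, PPAN, RRP12). NOC2L had FPKM of 14.8, 20.03, 24.6 and 14.8. NOC3L had 3.56, 5.40, 5.89 and 4.004, NOC4L 7.58, 9.98, 13.6 and 9.17, and NOP56, a protein of the ribosomal RNA methylation complex, 51.9, 69.5, 80.9 and 51.3. All 4 had their highest level at D4, the stage at which CEBPZ was highest and at which 37.3% of all mRNAs were. With scaling to the 3 reference genes, the log2 ratio of CEBPZ in D4 vs D2 went from 0.15 to -0.12 and that of CEBPG from 0.21 to -0.05.

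The mRNAs whose pattern over the 4 libraries was most like each member were found by the distance between log2 values centred on their mean, among 4771 mRNAs with FPKM of at least 10 in a library. RGCC, a cell cycle regulator, was nearest to CEBPA (distance 0.14), with FPKM of 3.38, 22.3, 33.1 and 8.12, followed by ALDH9A1 (0.39) and the catalase gene CAT (0.42). EPAS1, EIF4G3 and KIRREL were nearest to CEBPB (0.10, 0.10 and 0.11), and FAP, YPEL3 and SQSTM1 to CEBPD (0.19, 0.20 and 0.22). For the members with narrow ranges many mRNAs lay close: TIMM44 was at 0.01 from CEBPG, before EMC6 and LDB1 (0.04 each), and BEX3 at 0.03 from CEBPZ, before XRCC5 (0.03) and TAF2 (0.04). The mRNAs nearest to DDIT3 were LOC100525613 (0.40), CHPT1 (0.44) and the efflux pump gene ABCB1 (0.52), whose FPKM was 10.02, 16.5, 5.95 and 17.4. With the distance taken over ratios to D0 instead, 1 of the 3 nearest mRNAs was shared for CEBPA and for DDIT3, 2 of 3 for CEBPG and CEBPZ, and all 3 for CEBPB and CEBPD. With 4 libraries, a short distance is a description of shape over few points.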

How the data were processed

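RNA of 4 stages was measured in 4 pooled libraries. The authors aligned trimmed reads to the pig genome (Sscrofa11.1) with HISAT2 2.0.5, per the labels and methods, and deposited FPKM per gene and SRPBM, from junction reads, per circRNA in the same column. The counter, its strand setting and the gene lengths are not given in the sources used here.

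The members, the gene lists and the rules were chosen with earlier results of these data known. Ratios were taken as log2(FPKM + 0.01) among mRNAs whose FPKM reached 1 in 3 or more libraries, and were called at 2-fold. A fold on this scale understates the change of low genes. Library totals were recovered from the smallest FPKM of 492 miRNA and tRNA genes, where 93.8% of 1521 values were whole reads within 0.01. The length of a gene was then the smallest in whole bases that gave whole reads within 0.002 in every library. It could be a whole fraction of the true one, with reads to match. Level intervals are exact Poisson and ratio intervals exact binomial (Clopper-Pearson), at 95%, and 3 reads on 1 kb equal an FPKM of 0.0398 to 0.0554. Named were all members, features within 10 kb, 3 mRNAs nearest to each member in pattern and marked genes of each list. Genes listed after a count of calls were chosen after their values were seen. Alternatives were pseudocounts of 0.1 and 1, no filter, and scaling by the median of gene ratios, the protein-coding sum or, added after seeing the data, 3 reference genes (RPLP0, PPIA, HPRT1). Shares were also taken over CEBPA, CEBPB and CEBPD alone, and pattern distances over ratios to D0. The scripts ran under Python 3.11.15 with numpy 2.4.6, pandas 2.3.3 and scipy 1.17.1, and were tested on simulated data. A listed gene is not reported here.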

Additional observations from a re-analysis of the deposited data

How the results depend on the processing

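None of the 8 calls of members among 30 values was lost under the alternatives tried. Of 150 values of members under them, 85 stayed within the counting interval of the reported value and 65 left it, by at most 0.27 on the log2 scale. In D4 vs D2, where no member was called, 1 passed 2-fold under median-ratio scaling (DDIT3), 1 under scaling to the protein-coding sum (DDIT3) and 2 under scaling to 3 reference genes, which was chosen after seeing the data (DDIT3, and CEBPD at -1.01). Uncalled ratios near 0 changed sign for CEBPZ in D8 vs D0 (0.13 under median-ratio scaling) and CEBPG in D8 vs D0 (-0.06 under the reference genes), besides those given with the members. The count of mRNAs past 2-fold went with a pseudocount of 1 from 467 to 271 in D4 vs D2, from 1335 to 766 in D8 vs D4 and from 669 to 414 in D8 vs D0. With no filter it was 4793 instead of 1545 in D2 vs D0, 3020 in D4 vs D2, 4480 in D8 vs D4, 5221 instead of 1768 in D4 vs D0 and 3510 in D8 vs D0, since genes of few reads enter. No paired analysis was possible because each stage has 1 pooled library, and for the same reason no replicate could be left out.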

Other observations

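Neighbours of the members had values of their own. NDUFAF7, a mitochondrial gene whose start lies 8 bases from that of CEBPZ on the opposite strand, had FPKM of 6.36, 11.3, 12.8 and 7.13 from D0 to D8, and its log2 ratio of scaled reads was 0.83 in D2 vs D0 (95% counting interval 0.74 to 0.92) where that of CEBPZ was 0.30 (0.25 to 0.36). PEPD, the peptidase gene 2060 bases beyond CEBPG, had 42.1, 62.0, 60.9 and 43.1. An unannotated transcript 5028 bases before CEBPG, MSTRG.58072, had 0.0749, 0.582, 0.583 and 0.296, from 6, 34, 46 and 17 reads, and another near CEBPD, MSTRG.44083, had 4 reads at D4 and was listed at 0 elsewhere. Near DDIT3, DCTN2 had 96.2, 93.2, 82.1 and 86.0, and MBD6 had 0.253, 0.0900, 0.195 and 0.0378, from 112, 29, 85 and 12 reads.

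The genes used as references for PCR in the study were not level in these libraries. RPLP0 had FPKM of 2346, 3606, 3741 and 3201, PPIA 944, 679, 699 and 802, and HPRT1 7.23, 5.32, 8.68 and 7.23, so that RPLP0 had a log2 ratio of 0.62 and PPIA of -0.48 in D2 vs D0. CIDEC, a lipid droplet protein that was not reliably expressed by the rule used here, had 0.271, 0.780, 5.01 and 54.6, with its highest value at D8, after the fall of CEBPA. Leptin (LEP) was under FPKM 1 in all 4 libraries.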
